A study of Danio rerio with 8 samples.

Results

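Matrilins are secreted proteins of the extracellular matrix, built from von Willebrand factor type A domains, epidermal growth factor-like repeats and a coiled coil through which the chains assemble. They form filaments between cells and bridge collagen fibrils to proteoglycans such as aggrecan. Matrilin 1, first described as cartilage matrix protein, and matrilin 3 are best known from cartilage, and matrilin 4 is known from a wider range of tissues. The zebrafish carries a duplicated matrilin 3, so 4 genes were taken from the deposited count table by their names: matn1, matn3a, matn3b and matn4, of 32520 genes in all. All 4 were in the table, and 3 of them passed the filter on low counts, which left 15559 genes. The gene matn3a did not pass.

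The libraries came from the zebrafish line Tg(fli1:EGFP)y1, whose fli1a promoter drives green fluorescent protein in endothelial cells and in skeletal precursors of the head that arise from neural crest. Larvae of wild-type genotype were injected at the one-cell stage either with a standard control morpholino or, in equimolar amounts, with a morpholino against exon-intron junction 10 of hpse2, the heparanase 2 gene. At 96 hours post fertilization, 60 to 80 larvae were pooled and dissociated, and fluorescent cells were sorted for polyadenylated RNA. Each group comprised 2 biological replicates with 2 libraries each, named 1_1, 1_2, 2_1 and 2_2, which gave 4 control libraries and 4 that carry the Hpa2 loss-of-function label (LOF-labelled). Values for single libraries follow that order throughout.

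Library totals ranged from 5048839 to 11344918 counts. The morpholino's target, hpse2, was not lower under its label. Its mean level was 28.5 CPM without and 65.8 CPM with that label (log2 fold change 1.20, SE 0.23, edgeR adjusted p = 0.130). All LOF-labelled libraries (47.4 to 83.3 CPM) lay above all controls (20.6 to 33.1 CPM), as was the case for 316 of 15559 genes tested. Counts per gene do not show splicing at the targeted exon-intron junction. The loss of function is therefore taken from the labels. CPM is counts per 1e6 of the library size after TMM scaling. Endothelial markers were present at modest levels, with fli1a at 482 ± 45.9 CPM and flt4 at 95.1 ± 17.6 CPM in the controls (mean ± SD, n = 4). Of the other listed markers, kdrl was at 57.3 ± 23.0 CPM and cdh5 at 37.3 ± 13.0 CPM. Because the fli1a promoter is also active in skeletal precursors of the head, fli1a and sums that include it do not measure endothelium alone. The 18 endothelial markers summed to 851 to 1170.1 CPM in the controls against 30630 to 35663 CPM for 28 cartilage matrix genes. Libraries of a biological replicate were not independent (consensus correlation 0.504), and the labels do not state whether they came from separate pools, so p-values over 4 against 4 libraries may reflect technical spread. The first principal component (40.3% of the variance) placed both libraries of control replicate 1 with those of LOF-labelled replicate 2, termed the first library set here. Control replicate 2 lay with LOF-labelled replicate 1, the second set. These sets were defined from the data.

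Matrilin transcripts in the sorted cells came almost entirely from matn1 and matn4. Per kilobase of gene length, which allows genes to be compared, the control level was 2575 ± 417 CPM per kb for matn1, 1028 ± 62.4 for matn4, 0.865 ± 0.473 for matn3b and 0.122 ± 0.0968 for matn3a (mean ± SD, n = 4). By this measure matn1 ranked 5th and matn4 28th of the 15559 genes, and matn3b ranked 14246th. In the LOF-labelled libraries the levels were 1089 ± 261 CPM per kb for matn1, 1014 ± 347 for matn4, 1.09 ± 0.534 for matn3b and 0.107 ± 0.0273 for matn3a. Per kb, the control ranges were 2174 to 3072 for matn1 and 944 to 1095 for matn4, and with the LOF label they were 863 to 1378 and 712 to 1330.3. Within a library, matn1 exceeded matn4 in all 4 controls and in 3 of the 4 LOF-labelled libraries (1378 against 1298, 874 against 715 and 863 against 712), while LOF-labelled 1_2 held 1242 against 1330.3. For both genes LOF-labelled replicate 1 was higher than replicate 2, and the LOF-labelled ranges of the genes overlapped. The ranges of matn3b and matn3a did not overlap in either group, although both genes were close to the limit of detection. The deposited annotation lists the von Willebrand factor type A domain and the matrilin coiled coil for all 4 genes, and a factor Xa inhibitory site domain for matn1 and matn4.

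**Figure D1:**
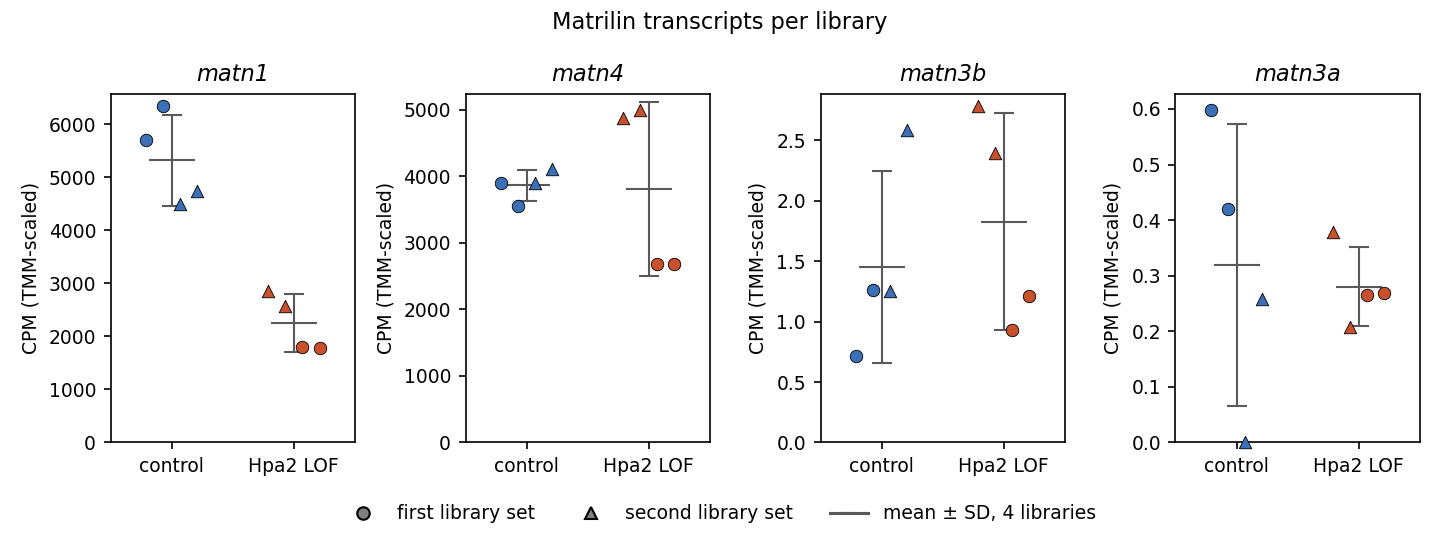
Level of each matrilin in the 8 libraries (CPM, linear axes from 0, a separate scale for each gene). Points are libraries, placed from left to right as 1_1, 1_2, 2_1 and 2_2, and bars are the mean ± SD of 4 libraries. All LOF-labelled libraries lie below all controls for matn1 (1782 to 2847 against 4492 to 6347 CPM), while for matn4 they lie on either side of the controls.

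The comparison of LOF-labelled with control libraries asks how transcripts of the sorted cells differ after injection of the hpse2 morpholino. Cartilage matrilin 1 fell by 1.24 on the log2 scale, and neither of the other tested matrilins passed the test. The level of matn1 (ENSDARG00000030215, forward strand of chromosome 19, 43314700 to 43338280, GRCz11) was 5702, 6347, 4492 and 4737 CPM across the controls. With the LOF label it was 2847, 2566, 1806 and 1782 CPM. The groups did not overlap, and the lowest values were those of LOF-labelled replicate 2. At 13246 to 55030 counts per library, counting error was small beside the differences between libraries. The log2 fold change was -1.24 (SE 0.18, edgeR adjusted p = 0.0410), and matn1 took 0.465 to 0.598% of all counts in the controls and 0.177 to 0.288% in the LOF-labelled libraries. The call held without LOF-labelled 1_2 (adjusted p = 0.0497) but was lost without each of the other 7 libraries (adjusted p up to 0.192), with biological replicate as a random effect (adjusted p = 0.0624) and with counts summed per biological replicate (adjusted p = 1.00). The fold change lay between -1.37 and -1.14 in all of these fits.

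Of the 3 matrilins tested, 1 was called at an adjusted p under 0.05, and it was lower in the LOF-labelled libraries. Over all genes 0.0836% were called lower. The same gene, 1 of the 3, had all LOF-labelled libraries below all controls, which was the case for 2.62% of all genes tested. Bulk RNA does not distinguish fewer cells of a type from less RNA per cell.

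Matrilin 4 did not pass the test between the groups, and its 2 LOF-labelled biological replicates flanked the controls. The level of matn4 (ENSDARG00000015947, forward strand of chromosome 6, 52790049 to 52846194) was 3895, 3551, 3901 and 4119 CPM across the controls. With the LOF label it was 4882, 5002, 2689 and 2677 CPM. LOF-labelled replicate 1 lay above every control and LOF-labelled replicate 2 below every control, while the libraries of each replicate lay close together. The group means were 3867 ± 235 and 3813 ± 1305 CPM (mean ± SD, n = 4), with a log2 fold change of -0.020 (SE 0.21, edgeR adjusted p = 0.996). The sign of this value changed on omission of control 2_2 (0.0067), or of either library of LOF-labelled replicate 2 (0.12 for each). One gene overlaps matn4 on the opposite strand, rbpjl, with 21 counts over all libraries.

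The duplicated matrilin 3 genes were at the edge of detection, in libraries where matn1 was among the most abundant transcripts. For matn3b (ENSDARG00000069265, reverse strand of chromosome 13, 32627444 to 32635885) 6, 6, 10 and 30 reads were counted across the controls, against 22, 23, 7 and 9 with the LOF label. The groups overlapped, and 3 libraries of the second set, control 2_2 and LOF-labelled 1_1 and 1_2, were highest. Its mean level was 1.45 ± 0.795 CPM for controls, against 1.83 ± 0.898 CPM with the LOF label (mean ± SD, n = 4; log2 fold change 0.29, SE 0.48, edgeR adjusted p = 0.966). The value was 0.035 without LOF-labelled 1_1, 0.068 without control 1_1, 0.13 without LOF-labelled 1_2 and 0.79 without control 2_2, so single libraries decide it.

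For matn3a (ENSDARG00000069245, reverse strand of chromosome 20, 43760059 to 43775544) the controls held 5, 2, 0 and 3 counts, against 3, 2, 2 and 2 with the LOF label. The groups overlapped. The count of 0 in control 2_1 allows a level of up to 0.462 CPM (upper limit of the 95% exact interval, counting error only). The ratio of summed levels, 9 LOF-labelled against 10 control counts, was 0.906 (95% exact interval 0.326 to 2.48, counting error only). A group difference was not detectable at this depth, and without the filter on low counts edgeR gave a log2 fold change of -0.15 (adjusted p = 0.995). How reads shared by the matrilin 3 pair were assigned is not given in the sources used here, which makes the split between them uncertain.

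Ratios within a library need no scaling factor, and that to matn4 tests whether matn1 changed by a different amount than its abundant relative. The matn1 to matn4 ratio of CPM was 1.46, 1.79, 1.15 and 1.15 across the controls, against 0.583, 0.513, 0.672 and 0.666 with the LOF label. The groups did not overlap. These ratios are not corrected for gene length. Per kb, as given above, matn1 exceeded matn4 in 3 of the 4 LOF-labelled libraries as well. The log2 ratio differed by -1.17 (exact two-sided permutation p = 0.0286, adjusted over 3 ratios 0.0286, the smallest that 70 arrangements can give), being -1.27 within the first library set and -1.07 within the other. The log2 ratio to matn3b differed by -1.55 and that to matn3a by -1.28 (exact permutation adjusted p = 0.0286 for both), on a scale with a prior count of 2 that sets much of the value at such low counts. With a prior count of 0.5 none of the 3 ratios was called (exact permutation adjusted p = 0.0571 for each), although the unadjusted p for matn4 was again 0.0286. Without LOF-labelled 1_1, 2_1 or 2_2 the unadjusted exact p for matn4 was again 0.0286, the smallest possible, but its adjusted p was 0.0571, since p rose for the ratios to matn3a and matn3b. The ratio to matn3b also lost its call without LOF-labelled 1_2 (-1.47, exact permutation adjusted p = 0.0571).

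Of matrilin transcripts per kb, matn1 made up 67.6 to 76.5% in the controls and 48.3 to 55.0% in the LOF-labelled libraries. Most of the remainder was matn4, at 23.5 to 32.3% and 45.0 to 51.7%. Summed over the family, the level was 9188 ± 686 CPM for controls against 6065 ± 1833 CPM with the LOF label (mean ± SD, n = 4; exact two-sided permutation p = 0.0286, the smallest possible). With the LOF label the sums were 7732, 7570, 4496 and 4461 CPM, close together within each biological replicate. An exact permutation test over 2 against 2 biological replicates cannot give a p below 0.333, so it could not call this difference.

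**Figure D2:**
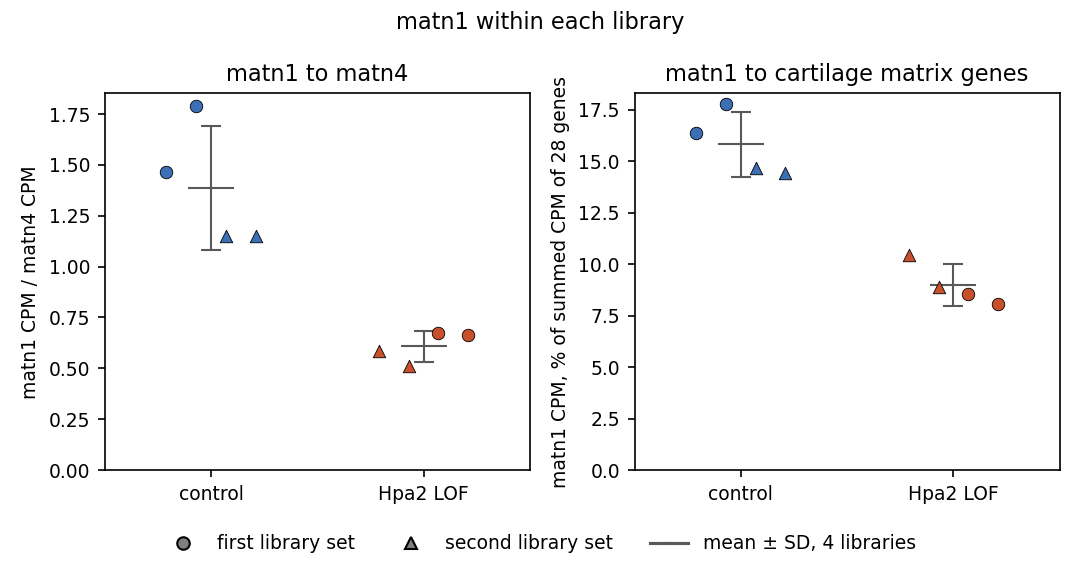
Level of matn1 relative to matn4 (left, ratio of CPM) and to the summed CPM of 28 cartilage matrix genes (right, percent) in each library. Points are libraries in the order 1_1, 1_2, 2_1 and 2_2, circles and triangles mark the library sets, and bars are the mean ± SD of 4 libraries. In both plots the 4 LOF-labelled libraries lie below the 4 controls, at 0.513 to 0.672 against 1.15 to 1.79 on the left.

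The group difference of the abundant matrilins varied with which biological replicates were set against each other. For matn1 the difference in mean log2 CPM, LOF-labelled minus control, was -1.75 within the first set and -0.77 within the other, of the same sign. For matn4 the values were -0.47 and 0.30, of opposite sign. An edgeR fit with an interaction of group and set gave 0.98 for matn1 (SE 0.13, adjusted p = 1.49e-04) and 0.77 for matn4 (SE 0.13, adjusted p = 0.00177), while matn3b was at 0.19 (SE 0.83, adjusted p = 0.974). Thus 2 of the 3 tested matrilins were called, against 0.784% of all genes. The call of matn4 was lost without LOF-labelled 2_2 (adjusted p = 0.0501). With 1 biological replicate per group and set, the interaction term is arithmetically the difference between replicates numbered 1 and 2, summed over both groups. Its p-values measure that difference against the spread between libraries of a replicate, so they show that biological replicates differed and do not test the sets over independent samples. Paired by replicate number in place of set, matn1 differed by -1.15 in replicate 1 and -1.36 in replicate 2, and matn4 by 0.41 and -0.58.

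**Figure D3:**
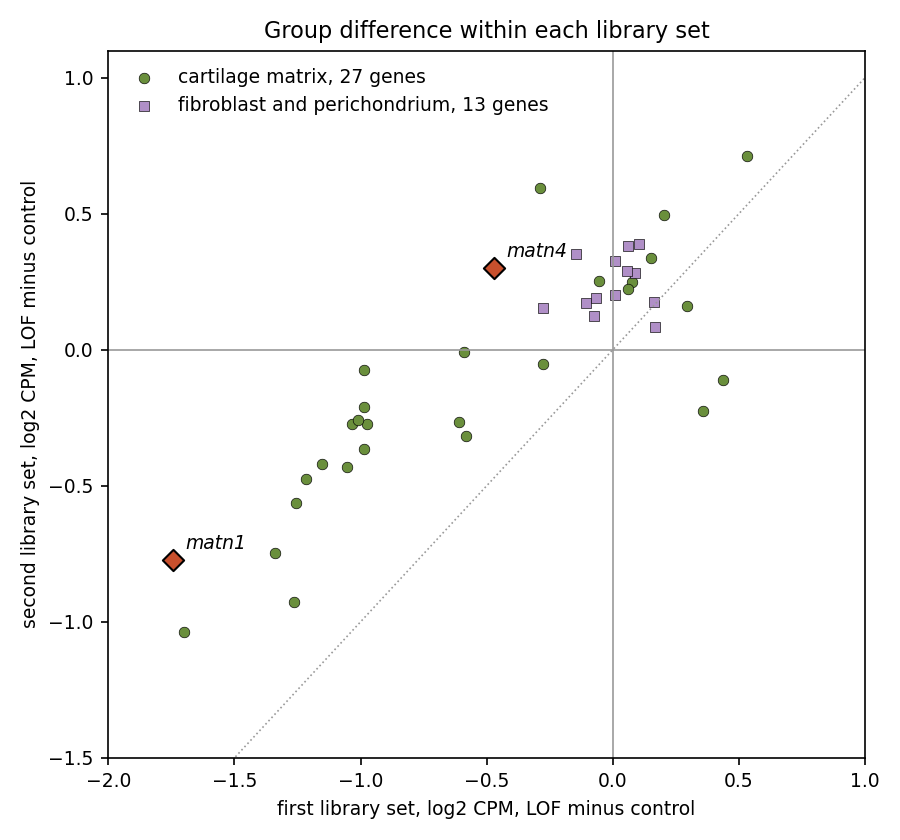
Difference in mean log2 CPM, LOF-labelled minus control, in the first library set (horizontal) and the second (vertical), for matn1 and matn4 (diamonds), 27 tested cartilage matrix genes (circles) and 13 fibroblast and perichondrium genes (squares). The dotted line marks equal differences; matn1 lies below 0 in both sets, at -1.75 and -0.77, and matn4 has opposite signs, at -0.47 and 0.30.

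The values of other cartilage matrix genes mostly lay below 0, and all but 1 lay above that of matn1. Of 28 cartilage matrix genes in the table, 27 were tested, 1 was called lower and 26 did not pass, beside 0.0836% of all genes called lower. The called gene was acana, the large aggregating proteoglycan aggrecan, at 313 ± 14.02 CPM for controls against 147 ± 21.3 CPM with the LOF label (mean ± SD, n = 4; log2 fold change -1.09, SE 0.11, edgeR adjusted p = 0.0143). The acana call was lost without control 1_1 (adjusted p = 0.116), without LOF-labelled 2_1 (0.0591) or 2_2 (0.0595) and with counts summed per biological replicate (1.00), at fold changes of -1.09 to -1.03. The median log2 fold change over the list was -0.44, with 17 genes below 0 and 10 above, beside 0.0017 over all genes tested. All LOF-labelled libraries lay below all controls for 13 of the 27, against the 2.62% of all genes given above. The list was chosen with earlier results of these data known, and libraries of a biological replicate were not independent. These shares are therefore descriptive. One member had a lower value than matn1, the second aggrecan gene acanb (-1.31, adjusted p = 0.0714).

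The most abundant members of the list were the type II collagens, the main fibrils of cartilage, with log2 fold changes of -0.44 for col2a1a and -0.29 for col2a1b. The type IX collagens that decorate those fibrils had values of -0.63 (col9a2) and -0.60 (col9a3), and the type XI collagen col11a2 had -0.92. The link protein hapln1a, which ties aggrecan to hyaluronan, was at -0.16. None of these 6 passed the test (adjusted p from 0.0610 to 0.907). Their levels in the controls, from 2919 CPM for col9a3 to 6229 CPM for col2a1a, were of the order of that of matn1.

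**Figure D4:**
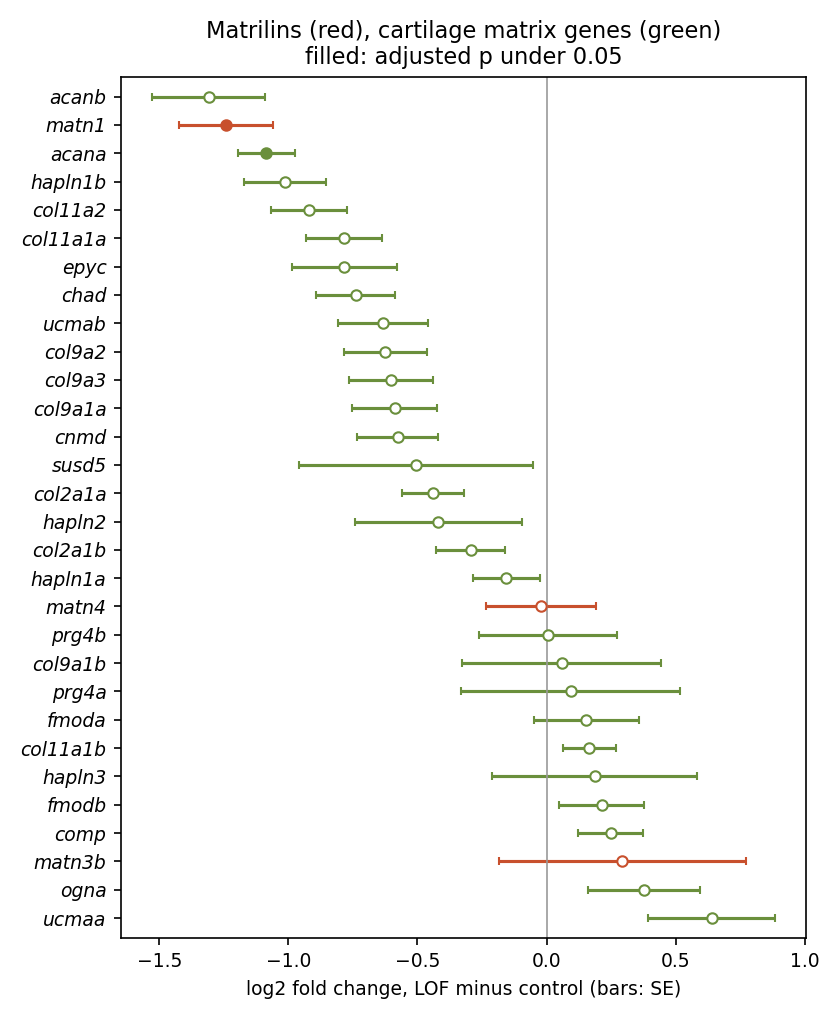
Log2 fold change, LOF-labelled minus control, of the 3 tested matrilins and 27 cartilage matrix genes, with bars for the SE and filled points for an adjusted p under 0.05. The filled points are matn1 at -1.24 and acana at -1.09, and matn4 lies at -0.020.

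Measured against the cartilage matrix genes of the same library, matn1 was still lower. It equalled 16.3, 17.8, 14.7 and 14.5% of their summed CPM across the controls, against 10.4, 8.90, 8.56 and 8.06% with the LOF label. The groups did not overlap. The log2 ratio differed by -0.82 (exact two-sided permutation p = 0.0286, the smallest possible), being -1.04 within the first library set and -0.60 within the other. The sum itself ranged over 30630 to 35663 CPM for controls and over 21093 to 28836 CPM with the LOF label, a log2 difference of -0.44. A larger decrease than that of the sum was not particular to matn1. The median log2 fold change of the 27 tested members, -0.44, was close to the value of the sum. The lowest values were those of acanb (-1.31), acana (-1.09), hapln1b (-1.01) and col11a2 (-0.92). Further members, such as col11a1a (-0.79) and epyc (-0.78), also lay below the sum, while 10 of the 27 lay above 0. The ratios of the list members to the sum were not tested. With col2a1a and col2a1b left out of the sum, the difference in the log2 ratio of matn1 was -0.78 (exact permutation p = 0.0286). With the full sum, this difference lay between -0.89 and -0.76 when any 1 library was left out (exact permutation p = 0.0286 in each case).

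Among 11 transcription factors of cartilage and its neural crest precursors, 1 was called lower and 10 did not pass. The share called lower was 0.0836% over all genes tested. The called gene was sox10, of neural crest and its derivatives, at 66.1 ± 6.70 CPM for controls against 33.6 ± 6.36 CPM with the LOF label (mean ± SD, n = 4; log2 fold change -0.97, edgeR adjusted p = 0.0410). The sox10 call held without LOF-labelled 1_2 (adjusted p = 0.0367) and was lost without each of the other 7 libraries (0.0635 to 0.192), with library totals alone (0.0516), with biological replicate as a random effect (0.137) and with summed counts (1.00). The chondrocyte factors sox9a, sox5 and sox6 had values of -0.40, -0.30 and -0.62, and the arch factors foxc1b, barx1 and runx3 had -0.034, 0.19 and 0.21. The list's median was -0.034.

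Genes of hypertrophic cartilage and bone did not pass the test, like nearly all genes tested. Of 12 listed genes, 9 were tested and 0 passed, with a median of 0.095 (edgeR adjusted p from 0.922 to 0.996). Over all genes, 14 of 15559 were called. The hypertrophic collagen col10a1a was at 0.14, the matrix glycoprotein gene sparc at 0.046 and the phosphatase gene alpl at 0.19. The values of entpd5a, spp1 and mef2ca were 0.078, 0.030 and 0.095. The summed level of these genes was 3570, 3282, 4086 and 4062 CPM across the controls, against 5033, 4555, 3139 and 3144 CPM with the LOF label. LOF-labelled replicate 1 was above every control and LOF-labelled replicate 2 below every control, as for matn4. Most of this sum came from sparc and col10a1a, at means of 2395 and 1125 CPM in the controls, where the sum averaged 3750 CPM.

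Genes with von Willebrand A domains outside the matrilin family mostly had values of the opposite sign to matn1. Of 15 such genes, 13 were tested and 0 passed (adjusted p from 0.644 to 0.964), and 12 of the 13 had values above 0 (median 0.21). Over all genes tested, 7823 of 15559 had values above 0, and 14 were called. This sign was not particular to the list, as 12 of 13 fibroblast and perichondrium genes and 8 of 8 mural cell genes shared it. The summed CPM of the 15 genes with von Willebrand A domains was 6963 to 8188 for controls and 8360 to 9641 with the LOF label, without overlap. Gene by gene, 2 of the 13 had all LOF-labelled libraries above all controls, as did 316 of all 15559 genes. The fibril-associated collagens col12a1a and col12a1b were at 0.20 and 0.21, the microfibrillar collagens col6a1, col6a2 and col6a4a at 0.11, 0.15 and 0.26, and the collagen-binding integrin itga10 at -0.19.

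Matrix genes listed as known or likely partners of matrilins were mixed in sign. Of 17 tested, 1 was called lower (acana) and 16 did not pass, with a median of 0.058, beside 0.0836% of all genes called lower. Values lay below 0 for 5 genes, lowest for acanb (-1.31), and above 0 for 12. All LOF-labelled libraries lay below all controls for 5 of the 17, against 2.62% of all genes, and above them for 1. The summed CPM was 14110 to 14931 for controls and 10024.5 to 13720 with the LOF label, without overlap. The cartilage collagen genes col9a1a, col9a2 and col9a3 lay between -0.63 and -0.59. The small proteoglycan decorin (dcn), the basement membrane linker nid1b and the microfibril gene fbn2b had values of 0.11, 0.11 and 0.13.

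Markers of other cells that the sort could hold had the following sums. Fibroblast and perichondrium genes summed to 35281 to 41468 CPM for controls and to 39955 to 49424 CPM with the LOF label, led by the type I collagens col1a2 (log2 fold change 0.22) and col1a1b (0.25). Of the 13, none passed (adjusted p from 0.812 to 0.991), and 12 had values above 0. Mural cell genes, with pdgfrb (0.12) and myh11a (0.23) highest, summed to 812 to 1081 CPM for controls and to 1020 to 1281 CPM with the label, and none of the 8 passed. Neuronal genes, with tubb5 (-0.27) and elavl3 (-0.20) highest, summed to 275.38 to 367.5 CPM for controls and to 249.1 to 274.89 CPM with the label, without overlap. All 9 had values below 0 (median -0.27) and none passed (adjusted p from 0.474 to 0.979). Over all genes tested, 7736 of 15559 had values below 0, and 14 were called. For 2 of the 9 all LOF-labelled libraries lay below all controls, against 2.62% of all genes. Muscle genes, with actc1b and ckmb highest, summed to 263 to 1346 CPM for controls, to 391 and 2395 CPM in LOF-labelled 1_1 and 1_2 and to 86.7 and 78.8 CPM in LOF-labelled 2_1 and 2_2. Endothelial markers summed to 872 to 1176 CPM with the label, close to the control range given above. Epidermal markers (krt8, krt91) summed to 596 to 753 CPM for controls and 626 to 832 CPM with the label, and blood markers (mpx, hbae3) to 619 to 1410 CPM and 521 to 1344 CPM. The part of these other cells in the matrilin differences was not tested. The markers snorc, bglap, mylpfa, krt5, epcam and alas2 were listed at 0 in all libraries.

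The genes whose profile over the 8 libraries lay nearest to that of matn1 were tnxba, pcolceb, itih1, hapln1b and foxa3. Likeness was measured as the mean absolute difference of log2 CPM, each gene centred on its own mean. It was taken over 9336 other genes with a mean log2 CPM of at least 3. Only names of lower-case letters, digits and dots were included, so genes named by an identifier or clone were not compared. The distances were those of tenascin XB (tnxba, 0.114), the procollagen processing enhancer pcolceb (0.117), the hyaluronan-binding heavy chain itih1 (0.153), the link protein hapln1b (0.158) and the forkhead factor foxa3 (0.159), where the median gene was at 0.633. Their log2 fold changes lay between -1.32 and -1.01, which the likeness to matn1 fixes in advance. The distance from matn1 to matn4 was 0.587, close to that of the median gene.

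The nearest genes to matn4 were the homeobox factor six1b (0.053), the growth factor gdf10a (0.058), the kinase gene tnk1 (0.071), rab3il1 (0.073) and the BMP-binding protein bmper (0.074), with a median gene at 0.307. Their differences within the sets, which the likeness to matn4 fixes in advance, were -0.45 to -0.30 and 0.063 to 0.40, beside -0.47 and 0.30 for matn4. For matn3b, with 113 counts in all and 9337 genes compared, the nearest were tek (0.220), dkk1a (0.229), clk4a (0.236), wnt9b (0.240) and l3hypdh (0.245), with a median gene at 0.539.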

How the data were processed

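Raw counts were deposited by the authors as 1 table of genes, beside Ensembl identifiers, names, coordinates and gene lengths. The submitters' processing notes name GRCz11 as the build. Which aligner and counting tool were used, and whether strand was, is not given in the sources used here. Columns were matched to samples through the labels' descriptions, and 0 sample columns were left unassigned.

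Genes were filtered with filterByExpr, scaled by TMM and tested by quasi-likelihood in edgeR 4.0.16 (R 4.3.3, robust, Benjamini-Hochberg over 15559 genes), without a replicate block, and the SE is the fold change divided by the root of F. A prior count of 2 was used for log2 CPM. Single values were compared with exact permutation tests (SciPy 1.17.1). The fit was also run on simulated counts drawn independently for each library. These held no spread shared by the libraries of a biological replicate, so they do not bear on the p-values given here. Alternatives used DESeq2 1.42.0 and limma 3.58.1, other filters, scalings and blocks, sums per biological replicate, and the omission of each library.

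The members, lists and library sets were chosen with earlier results of these data known. Shares of members or list genes set beside those of all genes are therefore descriptive. Named genes are the matrilins, hpse2, called list members, up to 6 most abundant members of each pathway list, 2 of each cell type list and the 5 nearest profiles; others, such as acanb and the genes listed at 0, were chosen after their values were seen. Of the list names, 2 (mmp13a, col6a3) belong to several genes and were left out. The names cytl1, nkx3.2, ibsp, vit, fbn1 and myocd matched no gene and dropped out as well.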

Additional observations from a re-analysis of the deposited data

Results flagged for a closer look

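The group difference of matn1 was smaller in the second library set than in the first, by 0.98 on the log2 scale in the edgeR interaction test (adjusted p = 1.49e-04). That of matn4 was higher in the second set by 0.77 (adjusted p = 0.00177), with opposite signs in the sets. Both are given here because this term passed the test, but each group has 1 biological replicate per set and the sets were defined from these data. The result therefore shows that biological replicates differed beyond the spread between their libraries, and no more. Cartilage matrix genes had median differences of -0.61 and -0.23 for these sets. Hypertrophy and bone genes had -0.11 and 0.23 and muscle genes -3.50 and 1.60, all in the same direction. Medians also rose from the first to the second set for cartilage transcription factors, von Willebrand A relatives, matrilin partners, fibroblast and perichondrium genes and neuronal genes. They fell for endothelial (0.12 to -0.083), blood (0.083 to -0.38), epidermal (0.098 to 0.036) and mural cell genes (0.20 to 0.19). The part of all these genes in the matrilin values was not tested. In 18 checks of groups of 4 libraries (the 4 genes, their sum and 4 ratios), 0 libraries stood apart. The check looks for a single library apart from the rest of its group. It does not flag biological replicates whose libraries depart together, as those of LOF-labelled matn4 did.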

How the results depend on the processing

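With 14 genes called over all genes, the count was 32 without the low-count filter, 96 with DESeq2, 2 with biological replicate as a random effect, 0 with a replicate block by library number (524 genes at an unadjusted p under 0.05), 396 with the crossed replicate block by library set, 0 with counts summed per biological replicate (299 at an unadjusted p under 0.05), and 0 to 20 when 1 library was left out (0 without control 1_1, at 854 genes with an unadjusted p under 0.05, and 0 without either library of LOF-labelled replicate 2, at 892 and 970 such genes). The log2 fold change of matn1 was -1.26 with the random effect, -1.26 with the block by library number (adjusted p = 0.207), -1.26 with the crossed block (adjusted p = 0.0506) and -1.24 with summed counts, none of which called it, and -1.37 to -1.14 with 1 library left out. It was called with the other scalings and filters, DESeq2, limma-voom and the replicate block by biological replicate number (adjusted p = 0.00374). With the block by library number, acana (adjusted p = 0.207) and sox10 (adjusted p = 0.345) were not called either; their alternatives were added after the data were seen. The value of matn4 was -0.18 to 0.12 and that of matn3b 0.035 to 0.79 with 1 library left out. Same-numbered libraries did not deviate together (correlations of -0.34 to -0.23 over genes), so the numbers were not taken as pairs. Means per biological replicate gave -0.49 paired by number and 0.49 when crossed. With 2 replicates centred within each group, these are the same value with its sign changed. The crossed value is therefore no separate evidence for the library sets.

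The interaction with library set called 122 genes, 290 without the low-count filter and 48 to 135 with 1 library left out, where it was 0.90 to 1.06 for matn1, 0.71 to 0.84 for matn4 and -0.19 to 0.84 for matn3b. With a prior count of 0.5 the ratio differences were -1.52 (matn3a), -1.58 (matn3b) and -1.17 (matn4), each at an exact permutation adjusted p of 0.0571. Summed per biological replicate, the ratios of matn1 to matn3a, matn3b, matn4 and the cartilage matrix sum differed by -1.16, -1.51, -1.16 and -0.81, and with a replicate block within library numbers by -1.28, -1.55, -1.17 and -0.82; the smallest p of these designs, 0.333 and 0.125, cannot pass the threshold. With 1 library left out these ratios ranged from -1.48 to -1.01, -1.88 to -1.27, -1.26 to -1.04 and -0.89 to -0.76. The cause of these changes was not tested. Depth limits matn3a and matn3b, whose intervals cover counting error only.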

Other observations

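After the values were seen, matn4 was set against 2 list sums in the same way as matn1. Relative to the cartilage matrix sum, matn4 was 9.96 to 12.7% in the controls and 12.1 to 17.9% in the LOF-labelled libraries, a log2 difference of 0.36 (exact two-sided permutation p = 0.114). Relative to the fibroblast and perichondrium sum it was 9.39 to 11.1% in the controls, 10.5 and 10.1% in LOF-labelled 1_1 and 1_2, and 6.73 and 6.65% in LOF-labelled 2_1 and 2_2, a difference of -0.28 (exact two-sided permutation p = 0.286). Neither ratio passed the test.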
